A study of Mus musculus with 8 samples.

Results

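The genes described here encode enzymes of sphingomyelin and ceramide metabolism and relatives of them. They are the acid sphingomyelinase Smpd1 and its relatives Smpdl3b and Smpdl3a, the latter known to act on nucleotides rather than on sphingomyelin. The others are the neutral sphingomyelinases Smpd2, Smpd3 and Smpd4, the ceramidases Asah1 and Asah2, and the sphingomyelin synthases Sgms1 and Sgms2. All 10 genes of the family were on the array, read by 22 of the 45037 probe sets tested, out of 18193 genes named in all. The family was chosen by its measured mutant against control difference, since Smpdl3a was among the probe sets that differed most between the groups. Its values in that contrast are therefore given as a description, without p-values, and a probe set is said to pass when its adjusted p in the limma fit over all probe sets was under 0.05.

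Round spermatids, the haploid germ cells that follow meiosis, were purified on an albumin gradient from adult 129 Sv/Ev mice of 2 to 4 months. The mutant mice are labelled BrdtΔBD1: their BRDT, a protein of the testis that binds acetylated histones, is missing the first bromodomain. The controls are labelled only as control, with the same strain and age and no stated genotype. Each group had 4 Affymetrix arrays, and each array held RNA pooled from 7 animals, so that differences between single animals were not seen. The values are normalised log2 intensities, on which a difference of 1 is a doubling, and p-values measure the spread between these pools.

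Sphingomyelin is a major lipid of the outer leaf of the plasma membrane. Sphingomyelinases split it into ceramide and phosphocholine, ceramidases cut ceramide into sphingosine and a fatty acid, and sphingomyelin synthases carry phosphocholine from phosphatidylcholine back onto ceramide. Acid enzymes of the family work in lysosomes or after secretion, and neutral ones at membranes of the cell. Male germ cells make ceramides and sphingomyelins with very long polyunsaturated acyl chains, and sphingolipids of the sperm head take part in capacitation and the acrosome reaction.

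Array medians lay between 3.1 and 3.14, and values of different arrays correlated with r of 0.970 to 0.993. The 14 round spermatid markers averaged 13.09 to 13.35 on control and 13.14 to 13.45 on mutant arrays, and 0 of them passed in either direction (limma, 0 also at an unadjusted p under 0.05). The brightest probe set of Brdt read 12.08 ± 0.25 in control and 10.67 ± 0.33 in mutant arrays (SD, n = 4 each; limma adjusted p = 0.0119 over probe sets). Whether this probe set lies inside the deletion is not given in the sources used here, so it does not check the labels. Among signs of RNA quality, the excess of the 3' over the 5' Gapdh probe set was 1.68 and 2.05 log2 units on control arrays 1 and 3, against 0.33 to 0.94 on the other 6 arrays. The 18S ribosomal RNA probe sets read 11.2 and 8.87 on these control arrays and 8.11 on mutant array 1, against 3.65 to 5.51 on the other 5 arrays. Markers of Sertoli cells, the somatic cells that support germ cells in the tubule, were higher in the mutant preparations. Their mean was 4.95 to 5.72 on control and 5.90 to 7.38 on mutant arrays, and 6 of 22 measured rose and 0 fell (limma, 16 and 0 at an unadjusted p under 0.05). Vim rose from 6.29 to 9.24 and Cldn11, of the Sertoli tight junction, from 4.17 to 5.89 (limma adjusted p = 0.0144 and 0.0294). Wt1, Rhox5 and Inha did not pass, with differences of 1.15, 1.46 and 1.54. Of the 22 markers 8 had a mean under 4 over the arrays, among them Amh at 1.97 and 1.95 and Sox9 at 3.8 in both groups, where a difference may not be measurable. Spermatogonia markers averaged 4.53 to 4.87 on control and 5.17 to 5.84 on mutant arrays, without overlap, a difference of 0.75. Of the 14 measured 1 rose and 0 fell in limma, and 7 were higher and 0 lower by unadjusted p. Of 11 peritubular and vascular markers 1 rose and 0 fell, the same counts as by unadjusted p. The part of these other cells in the differences was not tested beyond the Sertoli marker mean as a covariate. In those of spermatocytes (16 measured), Leydig cells (6) and macrophages and blood cells (13), 0 passed in limma. There, unadjusted p-values under 0.05 numbered 5 higher and 1 lower, 0 and 0, and 1 and 0. Of all genes 1.86% rose and 1.85% fell in limma. Over all probe sets 8.43% were higher and 6.69% lower by unadjusted p, and no such share was taken over genes.

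Smpdl3a, on chromosome 10, encodes a secreted phosphodiesterase that resembles acid sphingomyelinase but is known to act on nucleotides rather than on sphingomyelin. Its probe set, 1416635_at, read 7.77, 7.72, 8.11 and 8.29 on control arrays 1 to 4. On mutant arrays 1 to 4 it read 5.20, 5.34, 4.89 and 5.35. The groups lay far apart, since the highest mutant array was more than 2 log2 units below the lowest control array, while the arrays of each group stayed close together. The group means were 7.97 ± 0.27 and 5.20 ± 0.21 (SD, n = 4), a difference of -2.77 (SE 0.16), or a 6.84-fold lower intensity in mutant arrays. Only 5 of the 45037 probe sets had a larger fall. The difference was -2.56, -2.37, -3.22 and -2.94 between arrays of replicate number 1, 2, 3 and 4. It ran from -2.86 to -2.67 when any 1 of the 8 arrays was left out, and was -2.81 (SE 0.21) without control arrays 1 and 3. With the Sertoli marker mean as a covariate it was -2.78 (SE 0.32), as large as before but with a wider error, and it no longer passed. With this covariate 0 of all 18193 genes rose and 1 fell in limma, so the missed threshold is not particular to this probe set. As every preparation is a bulk of cells, fewer cells with the transcript and less of it per cell cannot be told apart.

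The closest relatives of Smpdl3a gave little signal. Smpdl3b, on chromosome 4, a membrane-anchored enzyme described in macrophages and podocytes, read 2.32 to 2.53 on control and 2.26 to 2.48 on mutant arrays. Its difference was -0.04, with a 95% interval of -0.25 to 0.17. Smpd1, the lysosomal acid sphingomyelinase, on chromosome 7, was read by 2 probe sets. 1448621_a_at read 3.04, 3.03, 2.94 and 2.80 on control arrays and 3.28, 3.04, 3.21 and 3.13 on mutant arrays, a difference of 0.21 (95% interval -0.01 to 0.44). All mutant arrays lay above all control arrays there, though the nearest, mutant array 2 and control array 1, both round to 3.04. 1447874_x_at overlapped between the groups (difference 0.18, interval -0.21 to 0.57). These values lie near the lower end of the scale, where a change in the transcript may not be measurable.

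**Figure D1:**
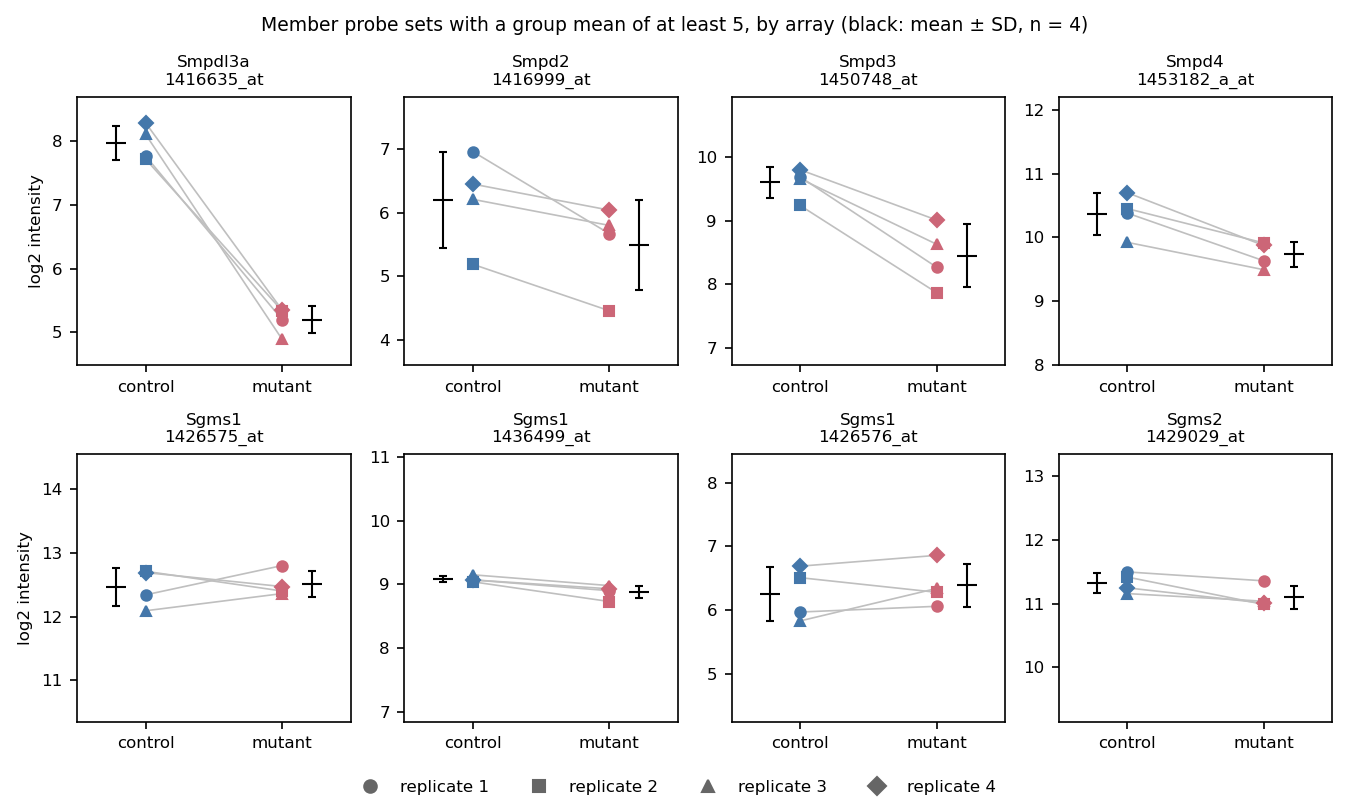
Log2 intensity (vertical axes, each spanning the same range) of the 8 member probe sets with a group mean of at least 5, in control and mutant arrays. Points are arrays, marker shapes give the replicate number, grey lines join arrays that share it, and black bars are the mean ± SD of 4 arrays. Smpdl3a goes from 7.97 to 5.20 on average, Smpd3 from 9.60 to 8.45, and the Sgms1 probe sets stay near their control values.

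Each of the 3 neutral sphingomyelinases had a negative difference at its brightest probe set. In the main limma fit, with all 8 arrays, all probe sets and group as the only term, 0 of these probe sets passed. Smpd3, on chromosome 8, encodes the neutral sphingomyelinase of the Golgi apparatus and plasma membrane that is known for its part in vesicle release and skeletal growth. Its probe set 1450748_at read 9.69, 9.24, 9.66 and 9.80 on control arrays 1 to 4. On mutant arrays 1 to 4 it read 8.27, 7.87, 8.63 and 9.01. The groups did not overlap, and the pair with replicate number 2 was the lowest of each group. The means were 9.60 ± 0.25 and 8.45 ± 0.49, a difference of -1.15 (SE 0.24), or 2.22-fold. This probe set did not pass in the main fit. It passed with the replicate number as a block, where the SE was 0.13. It also passed in 1 of the 8 fits that leave out 1 array, that without mutant array 4, where the difference was -1.34. With a minimum mean of 4, and with a variance trend and robust moderation, 2 member probe sets passed as lower, but the counts do not name them. With the Sertoli marker mean as a covariate the difference of 1450748_at was -1.84 (SE 0.38) and did not pass. The other 2 probe sets of Smpd3 read 2.04 to 2.76 on all arrays, with differences of -0.08 (1438665_at) and -0.13 (1422779_at).

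Smpd4, on chromosome 16, encodes a neutral sphingomyelinase of the endoplasmic reticulum and nuclear envelope. Its probe set 1453182_a_at read 10.38, 10.45, 9.92 and 10.70 on control arrays and 9.63, 9.91, 9.49 and 9.87 on mutant arrays. All mutant arrays lay below all control arrays, though mutant array 2 and control array 3 were almost level at 9.91 and 9.92. The difference was -0.63 (SE 0.18), or 1.55-fold, and -0.85 (SE 0.17) without control arrays 1 and 3. It passed with the replicate block (SE 0.11) and not in the main fit or when any 1 array was left out. With the Sertoli marker mean as a covariate it was -0.29 (SE 0.32). The other 3 probe sets of Smpd4 read between 2.51 and 3.54, with differences of -0.11 to 0.07.

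Smpd2, on chromosome 10 like Smpdl3a, encodes a neutral sphingomyelinase that also acts on lyso-platelet-activating factor. It read 6.96, 5.19, 6.21 and 6.45 on control arrays 1 to 4 and 5.67, 4.46, 5.80 and 6.04 on mutant arrays 1 to 4. The groups overlapped through control array 2 alone, and the array of replicate number 2 was the lowest of each group. Within replicate numbers the mutant array was the lower each time, by -1.29, -0.73, -0.41 and -0.41. The difference was -0.71 (SE 0.43; 95% interval -1.69 to 0.27), with an SE of 0.17 with the replicate block. It did not pass in either fit. It moved with the array left out, from -1.05 to -0.36, with -0.364 without mutant array 2 and -0.457 without control array 1, and was -0.33 (SE 0.52) without control arrays 1 and 3. With the Sertoli marker mean as a covariate it was -1.81 (SE 0.72).

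The ceramidases were dim. Asah1, the lysosomal acid ceramidase, on chromosome 8, read 2.83, 2.78, 3.22 and 3.03 on control and 3.39, 3.41, 3.46 and 3.12 on mutant arrays. The groups overlapped through mutant array 4 and control array 3. The difference was 0.38 (95% interval 0.08 to 0.67), the largest positive one among the 22 probe sets, and it was 0.21 (SE 0.25) with the Sertoli marker mean as a covariate. Asah2, the neutral ceramidase of the plasma membrane, on chromosome 19, was read by 3 probe sets between 2.21 and 3.56. At 1458849_at the control arrays read 3.41 to 3.56 and the mutant arrays 3.01 to 3.38, without overlap, a difference of -0.27 (95% interval -0.52 to -0.03), and of -0.06 (SE 0.19) with the Sertoli covariate. The other 2 had differences of -0.12 and 0.12.

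The sphingomyelin synthases differed little. Sgms1, the synthase of the Golgi apparatus, on chromosome 19, was read by 3 probe sets with a group mean of at least 5. The brightest, 1426575_at, read 12.34, 12.71, 12.09 and 12.69 on control and 12.80, 12.40, 12.36 and 12.47 on mutant arrays, with overlapping groups. Its difference was 0.05 with a 95% interval of -0.33 to 0.43. At 1426576_at the difference was 0.14 (interval -0.40 to 0.67). At 1436499_at, where arrays of a group varied least, the values were 9.04 to 9.15 in control and 8.73 to 8.98 in mutant arrays, without overlap, and the difference was -0.20 (interval -0.40 to 0.01), or -0.40 (SE 0.16) with the Sertoli covariate. The signs at the first and second of these probe sets turned to -0.20 and -0.22 without control arrays 1 and 3. Sgms2, the synthase of the plasma membrane, on chromosome 3, read 11.50, 11.42, 11.16 and 11.25 on control and 11.36, 10.99, 11.04 and 11.01 on mutant arrays at 1429029_at. The groups overlapped through mutant array 1, and the difference was -0.23 (interval -0.51 to 0.05). Its other probe set, 1428663_at, had a difference of 0.05.

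**Figure D2:**
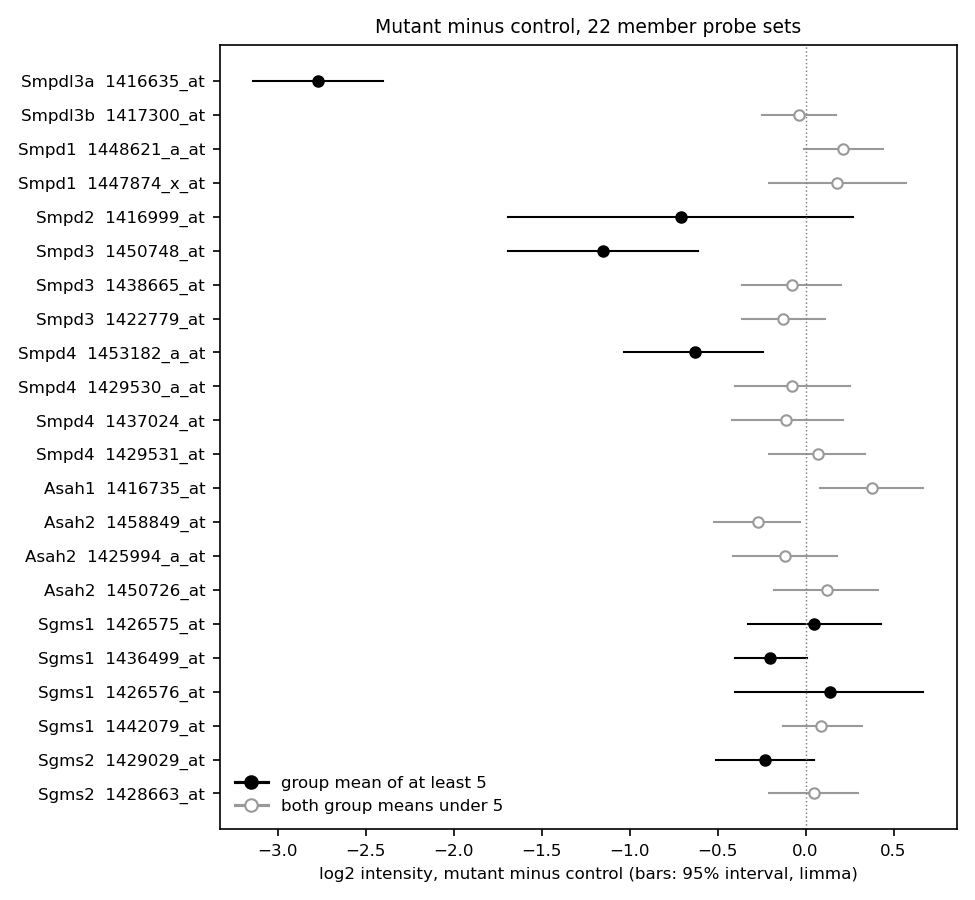
Difference in log2 intensity between mutant and control arrays (horizontal axis, 4 arrays each) for the 22 member probe sets, with 95% intervals from limma. Filled points have a group mean of at least 5. Smpdl3a stands at -2.77, Smpd3, Smpd2 and Smpd4 follow at -1.15, -0.71 and -0.63, and the other 18 lie between -0.27 and 0.38.

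Across the family, 8 probe sets of 6 genes had a group mean of at least 5, and 4 genes (Smpdl3b, Smpd1, Asah1 and Asah2) had none. Of the 22 probe sets 13 had a negative and 9 a positive difference, with a median of -0.08 beside -0.025 over all probe sets. In limma 1 was lower past the threshold, that of Smpdl3a, where 0.702% of all probe sets were. In the other direction 0 passed, where 0.717% of all probe sets did. At an unadjusted p under 0.05 the counts were 4 lower and 1 higher, where 6.69% and 8.43% of all probe sets were. With the replicate block 3 were lower, those of Smpdl3a, Smpd3 and Smpd4, beside 2.5% of all probe sets. All mutant arrays lay below all control arrays at 5 member probe sets and above them at 1, where these shares were 4.75% and 4.73% of all probe sets. As the family was picked from this contrast, nothing is read from these counts.

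The pattern of Smpdl3a over the 8 arrays was set against that of 7244 other genes with a group mean of at least 5, clone and predicted names left out, by the root mean square difference of log2 values centred on each gene's mean. The nearest was Ddit4l, an inhibitor of mTOR signalling, at 0.281. Elfn1, a leucine-rich membrane protein of synapses, followed at 0.296, and Orai1, the pore of the store-operated calcium channel, at 0.344. Gtf2ird2, of the TFII-I family, and Csrp2, a LIM-domain protein, were at 0.367 and 0.387. Ddit4l went from 8.41 ± 0.22 to 5.80 ± 0.28, Elfn1 from 7.73 ± 0.11 to 5.17 ± 0.25 and Orai1 from 8.33 ± 0.40 to 5.82 ± 0.41 (SD, n = 4 each). The likeness rests mostly on the gap between the groups, which is -2.40 to -2.87 in these 5 genes and -2.77 in Smpdl3a. No other member of the family was among the 5.

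**Figure D3:**
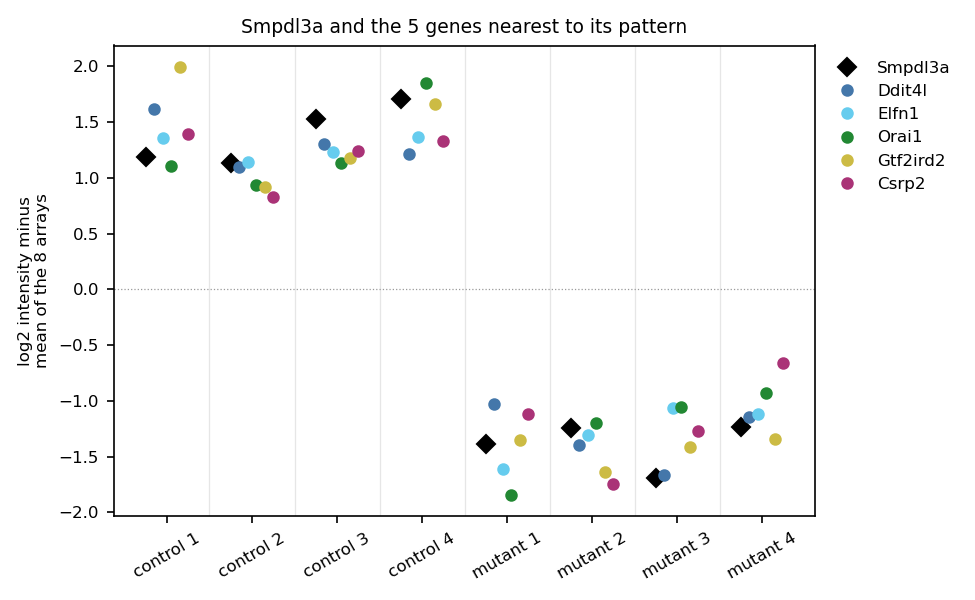
Log2 intensity minus the mean over the 8 arrays (vertical axis) for Smpdl3a (diamonds) and the 5 genes with the smallest root mean square difference from it, by array. In all 6 genes the 4 control arrays lie above 0 and the 4 mutant arrays below it.

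Other genes of sphingolipid metabolism were taken from a list of 61, of which 54 were measured, each by its brightest probe set. In limma over all genes 5 rose, or 9.26% of the list, where 1.86% of all genes rose, and 1 fell, or 1.85%, where 1.85% of all genes fell. The median difference of the list was 0.02 beside -0.02 over all genes, and 28 of the 54 had a positive difference. With the replicate block 13 rose, or 24.1%, where 6.6% of all genes rose, and 1 fell, where 4.94% did. Without control arrays 1 and 3 limma called 0 of them, where over all genes 18 rose and 50 fell. With the Sertoli marker mean as a covariate it also called 0, where over all genes 0 rose and 1 fell. At an unadjusted p under 0.05 the list had 14 higher and 3 lower in the main fit. It had 13 and 2 without those control arrays and 9 and 1 with the covariate. Over all probe sets 8.43% were higher and 6.69% lower by unadjusted p in the main fit. No such share was taken over genes, so nothing is read from these unadjusted counts or those by role below. The 5 that rose became 8 without mutant array 2, 3 without mutant array 1 or control array 2 or 3, 2 without mutant array 3, and 1 without control array 1 or 4.

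Among genes of sphingosine 1-phosphate, the signalling lipid made from sphingosine, 1 of 11 rose and 1 fell. Sgpp1, the phosphatase that turns it back into sphingosine, read 3.65, 4.14, 4.12 and 4.28 on control and 6.06, 6.64, 6.43 and 5.59 on mutant arrays. Its control values were dim, with a mean of 4.05, where the size of a rise may be poorly measured. Sgpp1 was higher in the mutant array at all 4 replicate numbers and rose 4.39-fold. Its adjusted p was 0.00359 in limma over all genes, and 0.00208 to 0.0772 over 16 alternatives. It also passed in all 8 fits that leave out 1 array, with adjusted p up to 0.0165. Its other 2 probe sets had differences of 1.11 and 0.58 and did not pass, and the mean of the 3 had 1.27 (adjusted p = 0.0178 in limma). Sphk2, a kinase that makes sphingosine 1-phosphate, fell 2.71-fold, from 7.23 ± 0.25 to 5.79 ± 0.69 (SD, n = 4; adjusted p = 0.0435 in limma; 0.0183 to 0.412 over 16 alternatives). It read 4.77 on mutant array 1 and 5.96 to 6.22 on the other mutant arrays. With the mean of its probe sets the difference was -0.74 and did not pass (adjusted p = 0.0704 in limma). It passed without mutant array 1 or 2, and missed the threshold without mutant array 3 (0.0778) or 4 (0.055) and without control array 1 (0.11), 2 (0.0764), 3 (0.111) or 4 (0.105). The related kinase Sphk1 was dim, at 2.77 and 2.80. Sgpl1, the lyase that degrades sphingosine 1-phosphate, read 3.12 to 3.32 on control arrays and 5.73, 3.67, 5.55 and 4.15 on mutant arrays (adjusted p = 0.0897 in limma). It passed without mutant array 2 and with a variance trend and robust moderation. The difference of 1.52 (SE 0.43) became 0.02 (SE 0.58) once the Sertoli marker mean was a covariate, and 0.88 with the mean of its probe sets.

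In de novo ceramide synthesis 2 of 15 genes rose, or 13.3%, and 0 fell in limma, where 1.86% and 1.85% of all genes did. At an unadjusted p under 0.05 there were 7 higher and 0 lower, with no share over all genes taken. Degs1, the desaturase that makes ceramide from dihydroceramide, rose 2.37-fold, from 3.92 ± 0.15 to 5.16 ± 0.41 (adjusted p = 0.0157 in limma, n = 4; 0.0107 to 0.123 over 16 alternatives). It missed the threshold without control array 1 (0.0509) or 4 (0.0527). The other probe set of Degs1 had a difference of 0.64 and did not pass (adjusted p = 0.2 in limma over probe sets). Sptssa, a small subunit of serine palmitoyltransferase, which starts the pathway, rose 2.16-fold from 6.84 ± 0.19 to 7.95 ± 0.37 (adjusted p = 0.0214 in limma, n = 4; 0.00984 to 0.201 over 16 alternatives). It missed the threshold without mutant array 3 (0.070) and without control array 1 (0.0518), 2 (0.0505), 3 (0.0562) or 4 (0.0601). Cers3, the ceramide synthase that makes the very long polyunsaturated ceramides of male germ cells, read 6.70, 8.43, 7.22 and 8.15 on control and 9.11, 11.09, 8.95 and 8.55 on mutant arrays. The groups did not overlap, but replicates of each group varied by over 1.5 log2 units. Its difference of 1.80 (SE 0.58) passed with the replicate block (adjusted p = 0.0292 in limma) and not without it (0.127). It was 1.13 (SE 0.68) without control arrays 1 and 3 and 3.39 (SE 0.94) with the Sertoli covariate, and passed in neither. With the block Cers2, Cers5, Sptlc3 and Ormdl1 rose as well, with differences of 0.80, 1.01, 0.77 and 0.60. With the Sertoli covariate these were 1.45, 0.84, 0.62 and 0.16. Their control and mutant means were low, at 2.57 and 3.37, 3.83 and 4.85, 3.49 and 4.26, and 3.29 and 3.89. In the main fit their adjusted p in limma was 0.101 to 0.208, and Cers2 also passed without mutant array 4. With the mean of their probe sets Cers5 had 0.51 and Sptlc3 0.33, and without control arrays 1 and 3 Ormdl1 had 0.91. Cers3 and Sptssa were bright enough for a group mean of at least 5 in both groups, and Degs1 in mutant arrays alone.

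Of the other 4 ceramidases and sphingomyelinases measured, 1 rose and 0 fell in limma (1 and 0 at an unadjusted p under 0.05). Acer3, an alkaline ceramidase of the endoplasmic reticulum and Golgi apparatus, rose 3.42-fold at its brightest probe set, from 5.48 ± 0.62 to 7.25 ± 0.46 (adjusted p = 0.0268 in limma, n = 4; 0.0081 to 0.216 over 16 alternatives). It read 6.40 on control array 2 and 5.06 to 5.31 on the other control arrays. It missed the threshold without mutant array 1 (0.0593) or 3 (0.0739) and without control array 1 (0.078), 3 (0.0749) or 4 (0.0831). Its other 3 probe sets did not move alike, with differences of 1.03, -0.06 and -0.17. With the mean of its probe sets the difference was 0.64 and did not pass (adjusted p = 0.0859 in limma). The related ceramidase Acer2 had a difference of -0.02.

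**Figure D4:**
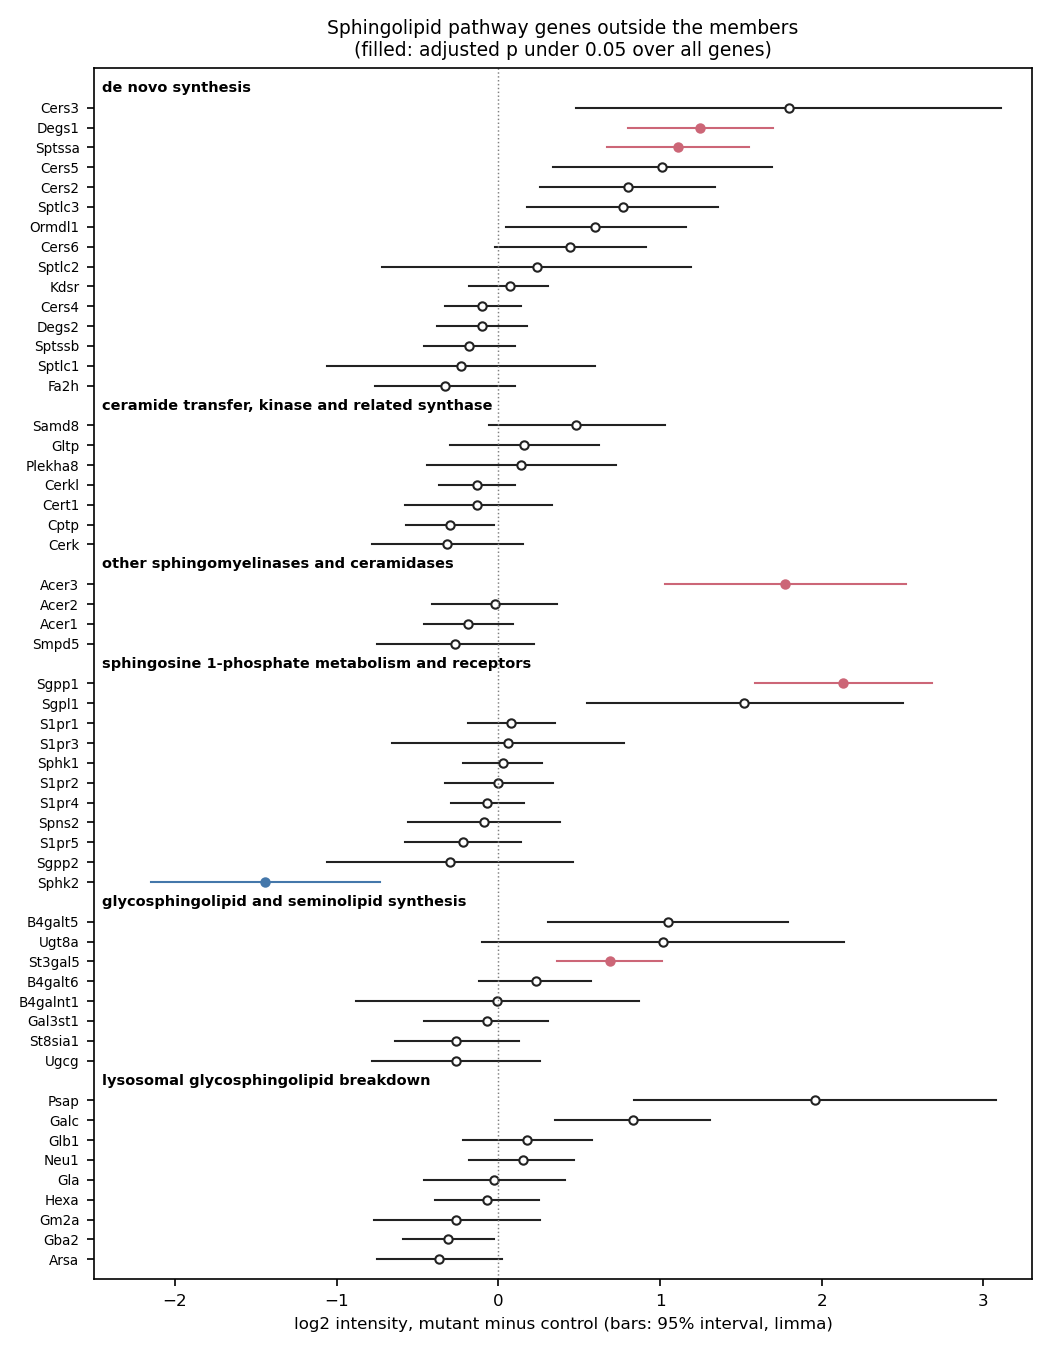
Difference in log2 intensity between mutant and control arrays (horizontal axis, 4 arrays each) for the 54 measured sphingolipid genes outside the family, by role, with 95% intervals from limma. Filled points passed an adjusted p of 0.05 over all genes: Sgpp1, Acer3, Degs1, Sptssa and St3gal5 to the right of 0 and Sphk2 to the left.

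In glycosphingolipid and seminolipid synthesis 1 of 8 genes rose and 0 fell in limma (2 and 0 at an unadjusted p under 0.05). St3gal5, the sialyltransferase that makes the ganglioside GM3, was dim and rose 1.61-fold, from 4.04 ± 0.13 in control to 4.72 ± 0.24 in mutant arrays (adjusted p = 0.0383 in limma, n = 4; 0.0125 to 0.592 over 16 alternatives). It passed in 1 of the 8 fits that leave out 1 array, that without mutant array 2 (0.0125), and had adjusted p of 0.0584 to 0.11 in the others, the lowest without control array 2 and the highest without control array 4. The other probe set of St3gal5 had a difference of 0.50 and did not pass (adjusted p = 0.234 in limma over probe sets). B4galt5, a lactosylceramide synthase, had a difference of 1.05 and passed with the block (adjusted p = 0.0398 in limma) and not in the main fit (0.117). It also passed without mutant array 4. The difference of B4galt5 was 1.72 with the Sertoli covariate and 0.46 with the mean of its probe sets. Ugt8a and Gal3st1, which make the testis glycolipid seminolipid, had differences of 1.02 (SE 0.50) and -0.07 (SE 0.17), and Ugcg, the glucosylceramide synthase, -0.26 (SE 0.23). Ugt8a read 5.92 on mutant array 1 and 3.34 to 4.32 on the other mutant arrays. Its difference was 0.491 without that array, 0.56 with the mean of its probe sets and -0.08 with the Sertoli covariate. That of Ugcg was -0.07 without control array 1 and -0.471 without control array 3. B4galnt1, which makes complex gangliosides, had -0.01 (SE 0.39). In glycosphingolipid breakdown, lysosomal but for Gba2, 0 of 9 passed in limma. At an unadjusted p under 0.05 there were 2 higher and 1 lower, the latter Gba2 at -0.31 (SE 0.12). Psap, the precursor of the saposins that help lysosomal enzymes reach their lipids, read 6.79, 6.0, 8.28 and 6.90 on control and 9.29, 7.95, 9.55 and 9.01 on mutant arrays. Its difference of 1.96 (SE 0.49) passed with the replicate block (adjusted p = 0.00612 in limma) and not in the main fit (0.0651). The difference also passed with a minimum mean of 4, with a variance trend and robust moderation, and without mutant array 2 or control array 3. It was 0.11 (SE 0.61) with the Sertoli marker mean as a covariate. Galc, the galactosylceramidase, had a difference of 0.83 and passed with the block (adjusted p = 0.0436 in limma) and not in the main fit (0.0679). The difference also passed without mutant array 2. With the mean of the probe sets of Galc it was 0.20 (adjusted p = 0.289 in limma). Of the 7 genes of ceramide transfer and related synthases 0 passed in limma, and at an unadjusted p under 0.05 there were 0 higher and 1 lower. Cert1, which carries ceramide to the Golgi apparatus, had a difference of -0.13 (SE 0.20) and Samd8, a ceramide phosphoethanolamine synthase, 0.48 (SE 0.24). That of Samd8 was 0.13 with the mean of its probe sets and 0.96 with the Sertoli covariate.

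The Sertoli marker mean, 1.48 higher in mutant arrays, moved with these differences to unequal degrees. With it as a covariate the difference of Sgpp1 was 2.28 (SE 0.47), that of Degs1 1.66 (SE 0.35), that of Sptssa 1.21 (SE 0.38), that of Acer3 2.34 (SE 0.61) and that of Sphk2 -1.38 (SE 0.62). These were no smaller in size than before, apart from Sphk2 at -1.44, and their errors were wider. St3gal5 went from 0.69 (SE 0.14) to 0.44 (SE 0.26). No mutant array had a marker mean as low as any control array, so these values are extrapolated.

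**Figure D5:**
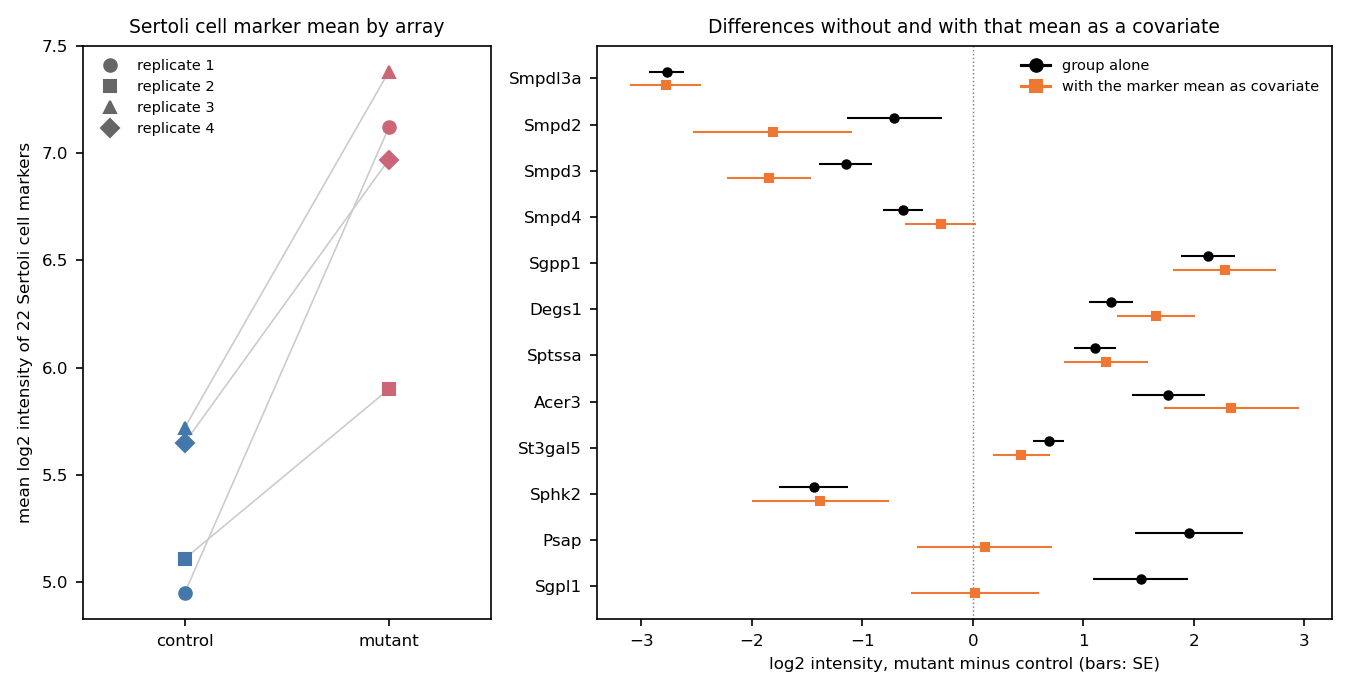
On the left, the mean log2 intensity of 22 Sertoli cell markers by array, from 4.95 to 5.72 in control and 5.90 to 7.38 in mutant arrays. On the right, the difference between mutant and control arrays with its SE for 12 genes, with group as the only term (circles) and with that mean as a covariate (squares): Smpdl3a stays at -2.77 and -2.78, while Psap and Sgpl1 go to 0.11 and 0.02.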

How the data were processed

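The deposited table holds log2 intensities for 45101 probe sets, normalised by the authors; GCRMA and limma are named per the submitters' processing notes, with no version or role. That the values are log2 was checked on their range. The background correction could not be varied, as scanner files were not used here. The 64 control probe sets were left out. Genes were named where the platform annotation gives exactly 1 gene (34945 probe sets; 932 have several and 9160 none), with symbols updated through a GRCm38.p6 gene table (34741 found). No build is given for the array, so no coordinates are printed.

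Groups came from the sample titles. Probe sets, and genes by their brightest probe set (mean of the 8 arrays), were fitted in limma 3.58.1 under R 4.3.3 (group as the only term, both directions, Benjamini-Hochberg adjustment over all features, threshold 0.05). The procedure was tested on simulated data with noise drawn independently for each array. That test does not cover arrays that deviate together or differ in cell make-up or RNA quality. Arrays of the same replicate number deviated together over all probe sets (r of 0.397, 0.432, 0.544 and 0.45; 0.066 at most between different numbers), so fits with the replicate block are given where they change a call. The number of arrays limits the precision.

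The members, the pathway and marker lists and the tests were chosen with earlier results of these data known. Named are all members, pathway genes past the threshold and 13 fixed ones, and the 5 genes nearest to Smpdl3a among those with a group mean of at least 5. Galc, B4galt5, Cers2, Cers5, Sptlc3, Ormdl1, Gba2, Sgpp2 and Arsa were named after their values were seen.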

Additional observations from a re-analysis of the deposited data

Results flagged for a closer look

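The mutant arrays of Sgms2 (1429029_at) had an isolated value: mutant array 1 read 11.36, while the others read 10.99 to 11.04. The gap to the nearest array was 0.854 of the group's range, above Dixon's 95% limit for 4 values. It was the only such group among 78 examined, where chance gives about 1 in 20.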

How the results depend on the processing

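Smpdl3a kept its difference within 1 SD of -2.77 in all 15 alternatives at probe set level, and 0 member probe sets passed as higher in any of them. The count of member probe sets lower past the threshold was 1, and 3 with the replicate block, 2 with a minimum mean of 4, 2 with a variance trend and robust moderation, 0 with the Sertoli marker mean as a covariate, and 1 to 2 when 1 array was left out. Pathway genes that rose numbered 5, and 13 with the replicate block, 0 without control arrays 1 and 3, 0 with the Sertoli covariate and 1 to 8 when 1 array was left out. The 1 that fell, Sphk2, was 0 with the mean of all probe sets, without control arrays 1 and 3 and with the covariate, and 0 to 1 when 1 array was left out. Over all genes 339 rose and 336 fell: 1201 and 899 with the block, 18 and 50 without control arrays 1 and 3, 0 and 1 with the covariate, and 618 fell after a further quantile normalisation. Leaving out 1 array gave 70 to 755 higher and 129 to 376 lower, the extremes without mutant arrays 3 and 2. The cause was not tested.

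Among the pathway genes past the threshold and the 13 fixed ones, some differences turned sign, none of them past the threshold. All of these were under 0.3 in size but that of Ugt8a, at 1.02. Others of the list turned as well, among them Sgpp2, from -0.30 to 1.01 with the covariate, and Arsa, from -0.37 to 0.16. With the mean of probe sets Cert1 was 0.177 and Acer2 0.128. Without control arrays 1 and 3 Cert1 was 0.006. With the covariate Sphk1 was -0.107, Ugcg 0.102, Ugt8a -0.083, B4galnt1 0.06 and Acer2 0.524. With 1 array left out the ranges were -0.256 to 0.052 for Cert1, -0.039 to 0.058 for Sphk1, -0.186 to 0.033 for Gal3st1, -0.187 to 0.317 for B4galnt1 and -0.139 to 0.064 for Acer2.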
